A study of Rattus norvegicus with 30 samples.

Results

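The epithelial sodium channel ENaC, the proteases that activate it and the inhibitors of these proteases were followed in the kidney as a set of 9 genes named by function: the subunit genes *Scnn1a*, *Scnn1b* and *Scnn1g*, the protease genes *Prss8*, *St14*, *Furin* and *Plau*, and the inhibitor genes *Spint1* and *Spint2*. Each symbol matched a single row of the deposited table of 32545 genes, and all 9 passed the filter on low counts in every comparison. The samples were poly(A) RNA libraries from the right kidney of male Sprague-Dawley rats, an outbred strain, taken from the cortex (Cx) or the outer medulla (OM). Rats of the LS groups ate the AIN-76A diet with 0.4% NaCl, and rats of the HS14 and HS21 groups had eaten 4.0% NaCl for 14 or 21 d. Each of the 6 groups (Cx LS, Cx HS14, Cx HS21, OM LS, OM HS14 and OM HS21) held 5 libraries, 30 in all, numbered 1 to 5 for LS, 6 to 10 for HS14 and 11 to 15 for HS21 in both tissues. No allele, transgene or drug is named for any group, the age at tissue collection was not given in the sources used here, and the diet groups differ in time on study as well as in salt, so that these cannot be told apart.

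ENaC carries sodium across the apical membrane of principal cells in the connecting tubule and collecting duct, the aldosterone-sensitive end of the nephron, and is the target of amiloride. It is a heterotrimer of the α (*Scnn1a*), β (*Scnn1b*) and γ (*Scnn1g*) subunits, and in textbook physiology its activity falls on a high salt intake as aldosterone falls. Furin cuts the α and γ subunits on their way to the membrane, and prostasin (*Prss8*), which matriptase (*St14*) can activate, promotes a further cut in the γ subunit that releases an inhibitory peptide. Urokinase (*Plau*) can cut the γ subunit from the luminal side. The Kunitz-type inhibitors HAI-1 (*Spint1*) and HAI-2 (*Spint2*) restrain matriptase and prostasin. These processing steps act on protein, and the values below are mRNA levels.

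Gene counts totalled 5408126 to 21842843 in a library, with the lowest total in replicate 10 of OM HS14 and the next lowest at 12748841. The smallest count of any member in any library was 204, for *Scnn1b* in replicate 10 of OM HS14. By the study's quality summary this library also had the lowest share of mapped reads and of exonic bases. Levels are given as CPM, which set a gene's count against the TMM-scaled size of its library, and changes as the edgeR log2 ratio with its SE. A gene was called at a Benjamini-Hochberg adjusted *P* under 0.05 in edgeR's quasi-likelihood test, adjusted over all genes tested. The libraries were tissue pieces, and their marker genes varied. The 9 principal cell markers summed to 744.3 to 811.3 CPM in Cx LS, 829.7 to 1313.3 in Cx HS14 and 981.1 to 1641.0 in Cx HS21, and the 8 proximal tubule markers to 17538.0 to 19318.8, 13019.2 to 17830.8 and 10391.8 to 13638.2 CPM. None of these 17 markers was at 0 in any group. In the OM the proximal markers summed to 2672.5 to 15230.2 CPM on LS, 4231.8 to 7416.1 at HS14 and 3421.5 to 7010.3 at HS21. The top value belonged to replicate 2 of OM LS, whose mean level of the connecting and distal convoluted tubule markers was 3.72 log2 CPM, against 0.75 to 1.59 in the other 4 OM LS libraries. This library and replicate 10 of OM HS14 were kept, and values without them are given beside the results they moved most. Less RNA of a gene in tissue can mean fewer cells of a type or less RNA per cell, and these cannot be told apart here.

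In the genome build used for the counts, Rnor_6.0, *Scnn1g* (ENSRNOG00000017842, chr1:191704311-191738268) and *Scnn1b* (ENSRNOG00000030981, chr1:191829555-191884298) lay on the plus strand 91286 bases apart, with no gene listed wholly between them. *Scnn1a* (ENSRNOG00000019368) lay apart from them at chr4:157836912-157860049, plus strand. *Prss8* (ENSRNOG00000019616) covered chr1:199372519-199377035, *Furin* (ENSRNOG00000011352) chr1:142185094-142197182, *Spint2* (ENSRNOG00000020636) chr1:87199313-87221892, *St14* (ENSRNOG00000005903) chr8:32240133-32280869 and *Plau* (ENSRNOG00000010516) chr15:3644769-3650819, all on the minus strand. *Spint1* (ENSRNOG00000012811) covered chr3:111049118-111062011 on the plus strand. *Scnn1b* overlapped *Cog7* and *Prss8* overlapped *Kat8*, each on the opposite strand, with mean levels of 45.0 and 25.4 CPM over the 30 libraries. The libraries kept no strand information, so reads of an overlap cannot be assigned to either gene.

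RefSeq promoter windows of build GRCr8 were matched for 5 of the 9 genes (*Scnn1b*, *Scnn1g*, *Plau*, *Spint1* and *Spint2*). *Scnn1a*, *Scnn1b*, *Scnn1g*, *St14* and *Spint2* all rose in Cx HS21, and the part of promoters in this was not tested. With these changes known, the stretches before the start of the neighbouring subunit genes *Scnn1b* and *Scnn1g* were chosen to be shown. They are chr1:185861126-185861325 for *Scnn1b* and chr1:185735975-185736224 for *Scnn1g*, both plus strand, 200 and 250 bases long, with GC boxes (GGGCGG on either strand) in capitals.
Scnn1b: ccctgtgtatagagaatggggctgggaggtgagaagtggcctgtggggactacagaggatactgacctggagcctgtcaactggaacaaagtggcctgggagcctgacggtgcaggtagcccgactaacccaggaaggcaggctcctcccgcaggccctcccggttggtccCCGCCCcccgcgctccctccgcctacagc
Scnn1g: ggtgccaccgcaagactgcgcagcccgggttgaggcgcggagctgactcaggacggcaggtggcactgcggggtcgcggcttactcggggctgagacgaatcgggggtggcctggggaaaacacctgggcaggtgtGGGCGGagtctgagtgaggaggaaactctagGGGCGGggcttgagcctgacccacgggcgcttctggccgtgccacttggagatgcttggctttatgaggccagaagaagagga
The whole windows, which run from 250 bases before to 50 bases after the start, held 1 GC box in *Scnn1b* and 2 in *Scnn1g*, and at least 1 in each of the 5 matched members, as did 33.1% of all 33469 RefSeq promoter windows. The hexamer TGTTCT, which steroid receptors of the glucocorticoid and mineralocorticoid type recognise, was searched on both strands and found in none of the 5 windows and in 20.7% of all windows. The E-box CAGGTG was found in 1 place each in *Scnn1b* and *Spint1*, in 3 each in *Scnn1g* and *Spint2*, and not in *Plau*. It was found in 18.8% of all windows, and no match overlapped a match of another motif searched. These are letter matches in short windows, and no measurement of binding was made.

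The question of the cortical comparisons was how the HS diet moved the mRNA of this channel and its processing enzymes. At HS21 edgeR called 8 of the 9 genes, 5 raised and 3 lowered, where 39.4% of all 14299 genes tested were called. All 3 subunits, *St14* and *Spint2* rose, *Prss8*, *Furin* and *Plau* fell, and *Spint1* was not called. At HS14 it called none of the 9 (2.33% of 14181 genes tested were called), with 5 at an unadjusted *P* under 0.05, 4 higher and 1 lower, as were 17.4% of all genes. DESeq2 called 2 of them at HS14, *Scnn1b* and *Scnn1g*, and 5.58% of all genes, and limma none of the 9. Both days were compared with the same 5 LS libraries.

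*Scnn1a*, the α subunit, whose transcription aldosterone raises, stood at 99.6, 88.9, 97.3, 92.2 and 91.5 CPM in Cx LS. It stood at 96.1, 85.7, 116, 114 and 128 CPM in Cx HS14 and at 157, 168, 178, 143 and 182 CPM in Cx HS21. The HS14 values overlapped the LS values, whereas each HS21 library lay above every LS and HS14 library. The log2 ratio to LS was 0.20 ± 0.10 (SE, n = 5 per group, edgeR adjusted *P* = 0.326) at HS14 and 0.82 ± 0.07 (edgeR adjusted *P* = 1.56e-05) at HS21, a 1.76-fold level. From its own mRNAseq of the cortex the paper also reports *Scnn1a* as raised. It reports the opposite direction in tubules picked from the cortex of other rats. There, quantitative PCR gave lower *Scnn1a* at HS21 than on LS in the non-proximal segments. The difference between whole tissue and isolated segments was not tested.

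*Scnn1b*, the β subunit, read 47.0, 51.8, 51.0, 43.7 and 44.0 CPM in Cx LS and 60.6, 52.0, 68.5, 64.0 and 115 CPM in Cx HS14. In Cx HS21 it read 96.3, 125, 98.9, 70.8 and 79.5 CPM. Neither HS group overlapped the LS group, but the HS14 and HS21 groups overlapped each other through replicate 10 of HS14. The log2 ratios to LS were 0.60 ± 0.18 (edgeR adjusted *P* = 0.11) at HS14 and 0.98 ± 0.13 (edgeR adjusted *P* = 0.000223) at HS21, the latter a 1.98-fold level.

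*Scnn1g*, the γ subunit, had 44.4, 48.4, 43.7, 49.0 and 47.2 CPM in Cx LS. It had 56.2, 54.6, 76.9, 65.0 and 101 CPM in Cx HS14 and 103, 114, 92.2, 64.2 and 73.7 CPM in Cx HS21. As with *Scnn1b*, both HS groups lay wholly above LS and overlapped each other. The log2 ratios to LS were 0.60 ± 0.15 (edgeR adjusted *P* = 0.0613) and 0.94 ± 0.14 (edgeR adjusted *P* = 0.000341), and the HS21 level was 1.92-fold that of LS.

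At HS14, then, 3 of the 9 genes did not overlap LS (*Scnn1b*, *Scnn1g* and *Spint2*), against 5.07% of all genes tested, and at HS21 it was 8 of 9 against 26.6%. Replicate 10 of Cx HS14 stood apart from its group. It had the highest *Scnn1b* and *Scnn1g* of the group together with the highest principal cell marker level (5.60 against 4.92 to 5.45 log2 CPM) and the lowest proximal marker level (9.90 against 10.30 to 10.41 log2 CPM). Without it the ratios at HS14 were smaller but less variable, 0.36 ± 0.09 for *Scnn1b* (edgeR adjusted *P* = 0.0477) and 0.43 ± 0.09 for *Scnn1g* (edgeR adjusted *P* = 0.0337), and 2 of 9 genes were called, with 3.30% of all genes called in that fit. Without replicate 7 of HS14 *Scnn1g* alone was called (log2 ratio 0.68, edgeR adjusted *P* = 0.0332), with 2.89% of all genes.

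**Figure D1:**
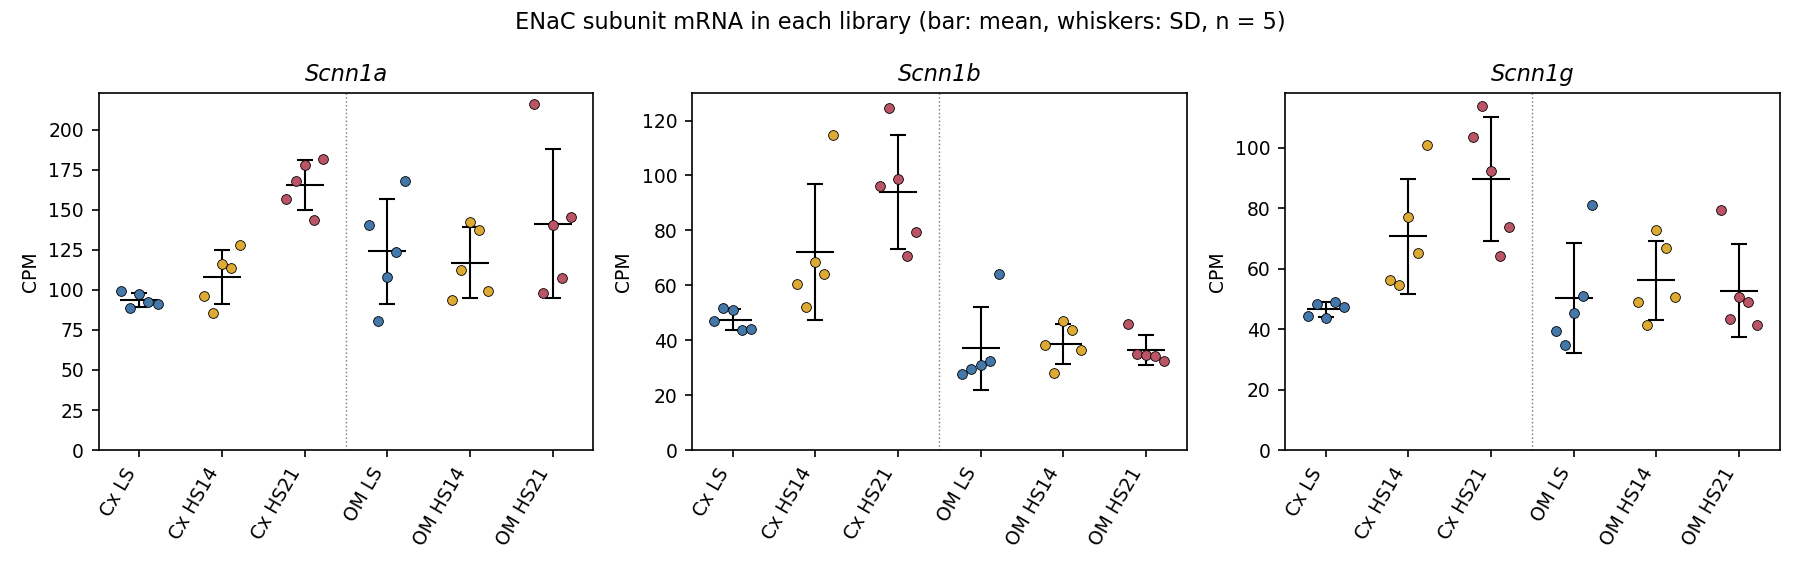
Level of the 3 ENaC subunit genes in CPM (y axis, from 0) in each library of the 6 groups (x axis, n = 5 each), with points for libraries, bars for means and whiskers for the SD. In Cx HS21 the *Scnn1a* values lie between 143 and 182 CPM, above the 88.9 to 99.6 CPM of Cx LS, and in the OM the groups overlap.

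Markers of the cells that carry the channel were also higher in Cx HS21, where 39.4% of all genes tested were called. Of 8 principal cell markers tested 6 were raised and none lowered, with a median log2 ratio of 0.74, beside 0.01 over all genes. *Aqp2*, the vasopressin-regulated water channel, rose by 1.11 ± 0.16 (edgeR adjusted *P* = 0.000402). *Aqp3* (log2 ratio 0.02, edgeR adjusted *P* = 0.91) and *Npnt* (0.13, edgeR adjusted *P* = 0.353) were not called. *Elf5* did not pass the low-count filter in the Cx. All of these enter the marker mean subtracted below. All 6 intercalated cell markers and the 5 connecting and distal convoluted tubule markers tested were raised too (medians 0.71 and 0.80; *Pvalb* was at 0 throughout), all 8 proximal markers were lowered (median -0.83), and the 7 leukocyte markers tested were raised (median 1.86). To measure the subunits beside these cells, the mean log2 CPM of the 9 principal markers, which went from 4.81 ± 0.04 (SD) in Cx LS to 5.41 ± 0.28 in Cx HS21, was subtracted in each library. *Scnn1a* exceeded this mean by 1.75 ± 0.06 (SD, n = 5) in Cx LS and by 1.96 ± 0.28 in Cx HS21, and the difference of 0.22 had an exact permutation *P* of 0.127 (adjusted 0.305 over 12 tests). *Scnn1b* went from 0.76 ± 0.14 to 1.12 ± 0.18, a difference of 0.36 (exact permutation *P* = 0.0159, adjusted 0.0952). *Scnn1g* went from 0.74 ± 0.09 to 1.05 ± 0.27, a difference of 0.31 (exact permutation *P* = 0.0238, adjusted 0.0952).

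Relative to the markers, then, all 3 subunits had a higher mean at HS21 but overlapped LS. At HS14 the difference was -0.18 for *Scnn1a* (exact permutation *P* = 0.0873, adjusted 0.262), 0.18 for *Scnn1b* (exact permutation *P* = 0.175, adjusted 0.349) and 0.20 for *Scnn1g* (exact permutation *P* = 0.0159, adjusted 0.0952). In the OM the 6 differences ran from -0.09 to 0.22, with exact permutation *P* of at least 0.317 and adjusted values of at least 0.544. The smallest two-sided *P* that an exact permutation of 5 against 5 libraries can give is 0.00794, so that over 12 tests a gene that reached it alone would still miss an adjusted 0.05, and the adjusted values leave these differences undecided. The part of the marker change in the subunits' change was not tested beyond this subtraction.

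**Figure D2:**
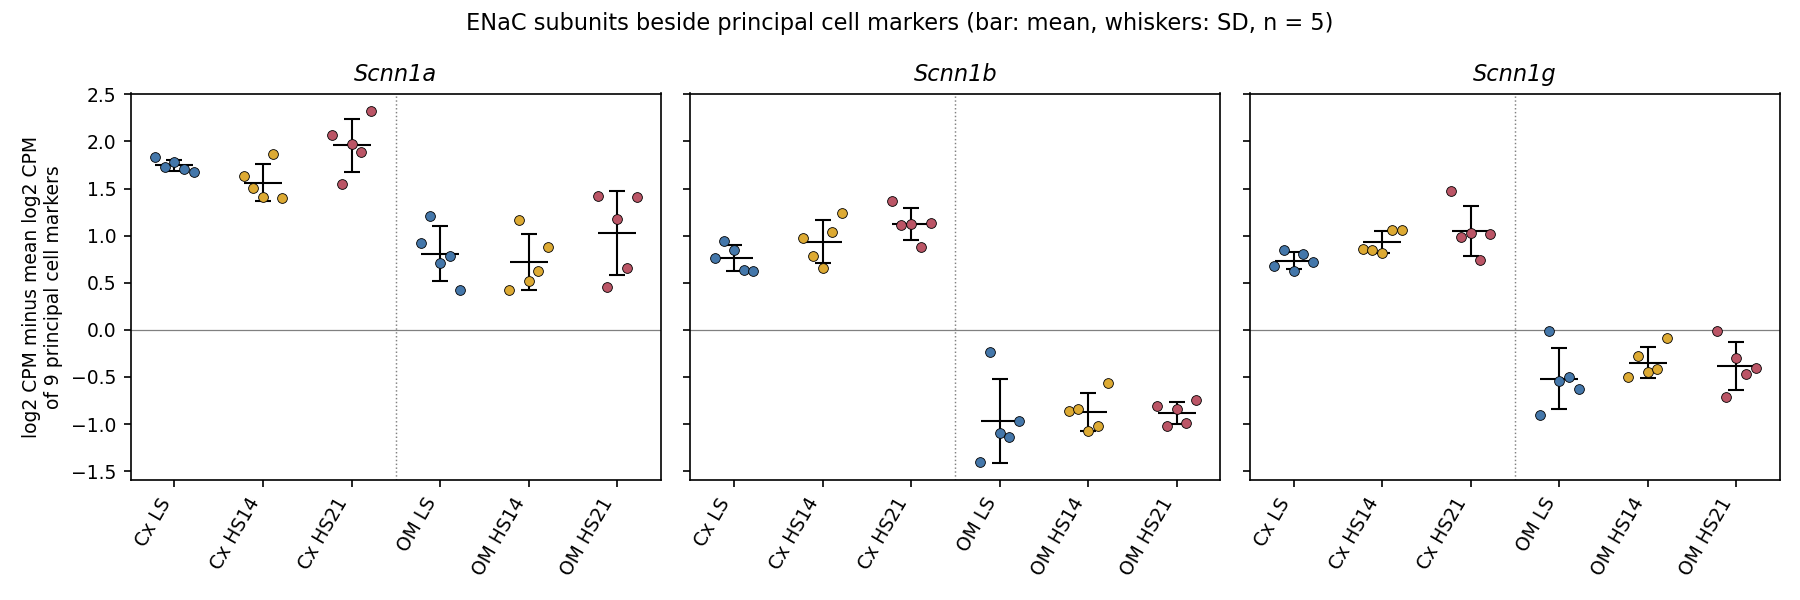
Log2 CPM of each subunit minus the mean log2 CPM of 9 principal cell markers (y axis) in each library of the 6 groups (x axis), with group mean and SD. The Cx HS21 and Cx LS points overlap for all 3 genes, and the *Scnn1b* points are below 0 in every OM library.

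Among the proteases, *Prss8*, which encodes the membrane-anchored prostasin, showed 287, 280.4, 326, 318 and 330.3 CPM in Cx LS. The values were 269.9, 302, 273, 260.0 and 222 CPM in Cx HS14 and 202, 219, 261, 215 and 189 CPM in Cx HS21. Every HS21 library was below every LS library, while HS14 overlapped both. The log2 ratio was -0.22 ± 0.08 at HS14 (edgeR adjusted *P* = 0.152), and at HS21 *Prss8* fell by 0.51 ± 0.08 on the log2 scale (edgeR adjusted *P* = 0.000739).

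*St14*, the transmembrane protease matriptase, had the lowest level per length of the 9 genes in the Cx and moved the other way. Its levels were 42.1, 28.5, 36.9, 34.6 and 33.1 CPM in Cx LS, 43.8, 42.7, 43.6, 35.9 and 66.9 CPM in Cx HS14 and 74.3, 68.2, 53.6, 46.2 and 61.2 CPM in Cx HS21. Again HS21 and LS did not overlap and HS14 overlapped both. The log2 ratios were 0.41 ± 0.16 (edgeR adjusted *P* = 0.203) and 0.79 ± 0.13 (edgeR adjusted *P* = 0.000863).

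*Furin*, the proprotein convertase of the trans-Golgi network, was at 442, 477, 484, 496 and 459 CPM in Cx LS. It was at 421, 473, 429.9, 461 and 319 CPM in Cx HS14 and at 332, 295, 352, 313 and 319 CPM in Cx HS21. Of the HS14 libraries only replicate 10 lay within the HS21 range. The log2 ratio was -0.17 ± 0.09 at HS14 (edgeR adjusted *P* = 0.354), and at HS21 *Furin* fell by 0.55 ± 0.06 (edgeR adjusted *P* = 3.98e-05).

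*Plau*, the secreted protease urokinase, showed the largest decrease of the 9 genes in the HS21 comparison. Its levels were 581, 644, 566, 612 and 551 CPM in Cx LS, 582, 551, 556, 656 and 472 CPM in Cx HS14 and 383, 297, 458, 397 and 357 CPM in Cx HS21. The HS21 libraries lay below all LS and HS14 libraries, which overlapped each other. The log2 ratio was -0.08 ± 0.08 at HS14 (edgeR adjusted *P* = 0.69, 95% interval -0.25 to 0.10), and at HS21 *Plau* fell by 0.65 ± 0.10 (edgeR adjusted *P* = 0.00046), to a 0.639-fold level.

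The 2 inhibitors differed. *Spint1* stood at 75.4, 72.9, 64.5, 76.4 and 81.4 CPM in Cx LS, 69.4, 77.2, 66.0, 65.7 and 82.5 CPM in Cx HS14 and 77.6, 80.7, 83.7, 64.8 and 67.2 CPM in Cx HS21. The 3 groups overlapped almost wholly. Its log2 ratio was -0.05 ± 0.08 at HS14 (edgeR adjusted *P* = 0.835, 95% interval -0.23 to 0.14) and 0.01 ± 0.08 at HS21 (edgeR adjusted *P* = 0.938, 95% interval -0.17 to 0.19). *Spint2* stood at 549, 583, 601, 589 and 586 CPM in Cx LS, 649, 624, 674, 617 and 837 CPM in Cx HS14 and 755, 817, 753, 639 and 687 CPM in Cx HS21. Both HS groups lay above LS, with replicate 10 again the highest of HS14. The log2 ratios were 0.22 ± 0.08 (edgeR adjusted *P* = 0.195) and 0.33 ± 0.07 (edgeR adjusted *P* = 0.00238), so that the HS21 level was 1.25-fold that of LS.

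**Figure D3:**
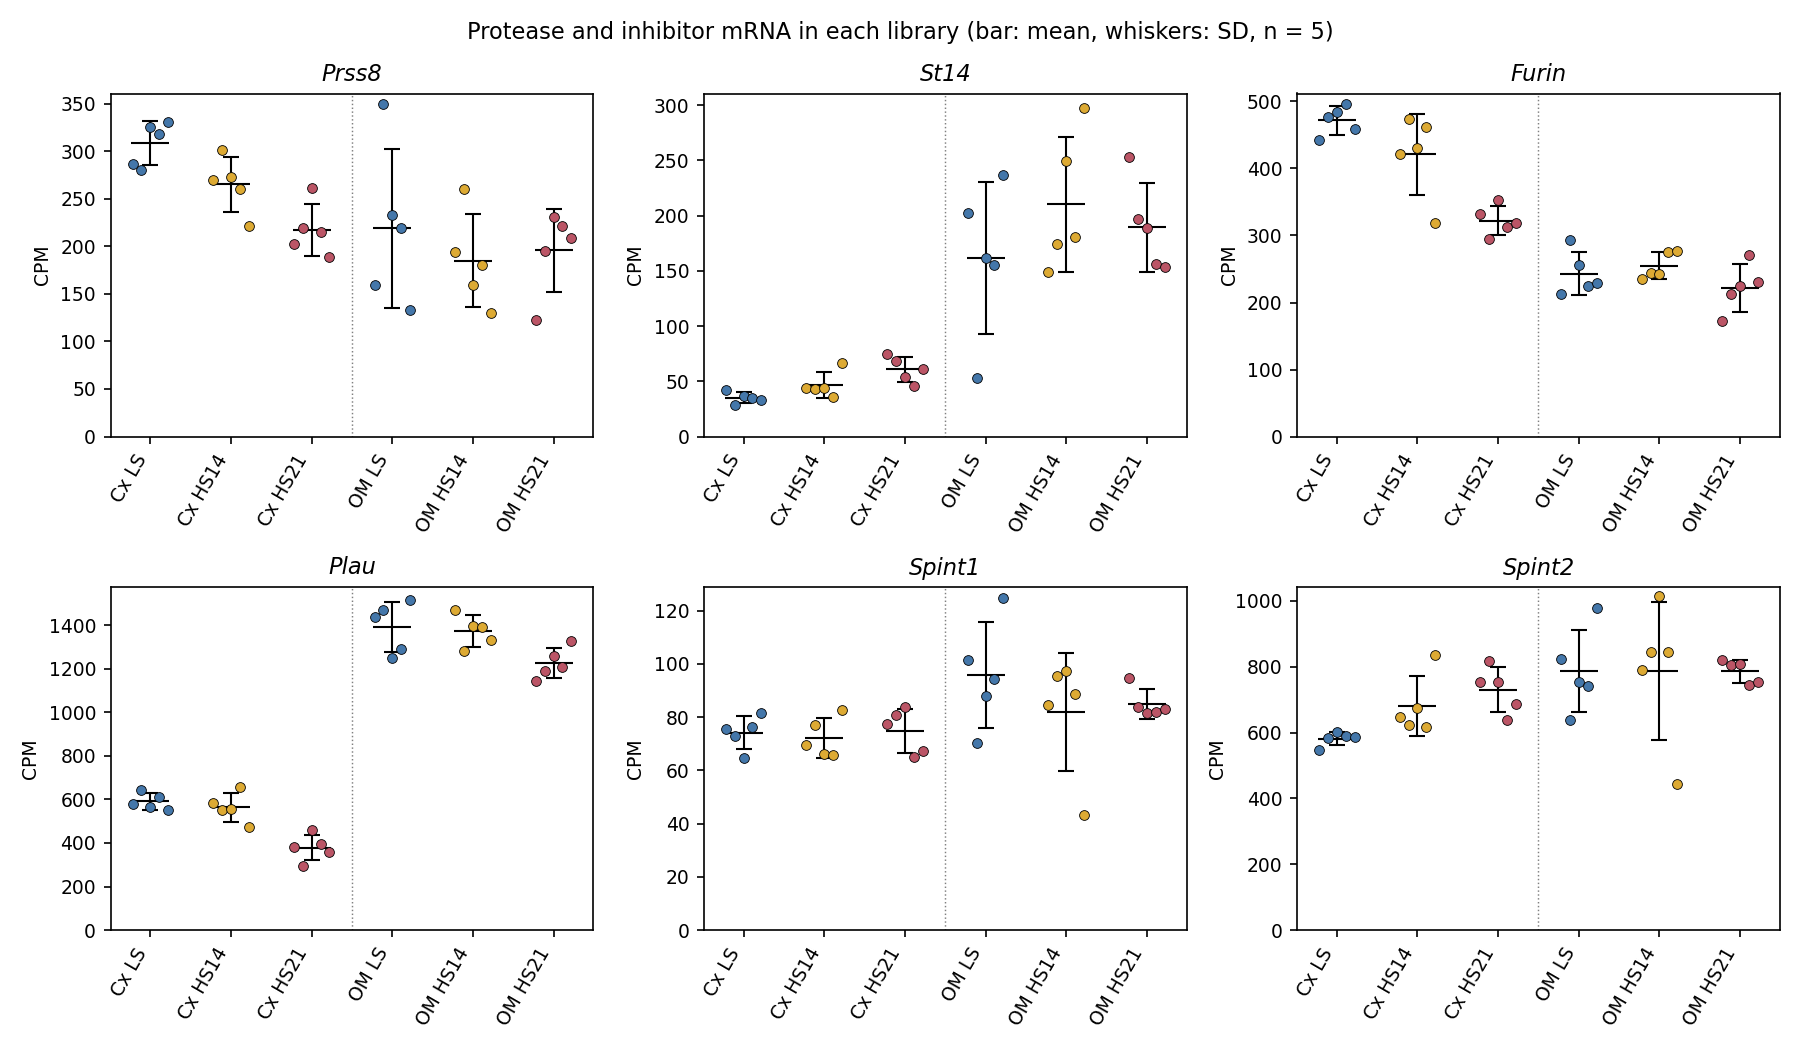
Level of the 4 protease and 2 inhibitor genes in CPM (y axes, from 0) in each library of the 6 groups (x axis, n = 5 each), with group mean and SD. In the Cx *Prss8*, *Furin* and *Plau* are lowest at HS21 and *St14* is highest there, and *Plau* lies between 1144 and 1515 CPM in the OM.

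When HS21 was compared with HS14 in the Cx, edgeR called 3 of the 9 genes against 16.2% of 14395 genes tested. *Scnn1a* rose by 0.62 ± 0.11 (edgeR adjusted *P* = 0.00867), *Plau* fell by 0.57 ± 0.11 (edgeR adjusted *P* = 0.0117) and *Furin* fell by 0.38 ± 0.10 (edgeR adjusted *P* = 0.025). For *Scnn1b* and *Scnn1g* the ratios were 0.39 ± 0.21 and 0.34 ± 0.19 (edgeR adjusted *P* = 0.232 and 0.243), with 95% intervals of -0.08 to 0.86 and of -0.09 to 0.77. Without replicate 10 of HS14 6 of 9 were called, as were 24.2% of all genes, with *Scnn1b* (0.62, edgeR adjusted *P* = 0.0167), *Prss8* (-0.35, edgeR adjusted *P* = 0.0209) and *St14* (0.55, edgeR adjusted *P* = 0.0157) added. *Furin* missed the threshold without any 1 of 7 other libraries (edgeR adjusted *P* = 0.0515 to 0.0696).

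In the OM none of the 9 genes was called at either day by edgeR, DESeq2 or limma, and none had an unadjusted *P* under 0.05 in edgeR. Of all genes 0.00694% of 14417 were called at HS14 and 0.769% of 14555 at HS21. None of the 9 separated HS from LS, as 1.53% of genes did at HS14 and 3.48% at HS21. The libraries of a group also differed more in the OM. Over the 27 combinations of gene and group the median SD of log2 CPM was 0.30 in the OM and 0.16 in the Cx.

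*Scnn1a* stood at 140.5, 80.8, 108, 124 and 168 CPM in OM LS, at 93.7, 113, 142, 137 and 99.2 CPM in OM HS14 and at 216, 98.1, 141, 107 and 145 CPM in OM HS21. *Scnn1b* stood at 27.8, 29.7, 31.0, 32.5 and 63.9 CPM in OM LS, at 38.3, 27.9, 47.1, 43.6 and 36.5 CPM in OM HS14 and at 45.9, 35.0, 34.6, 34.1 and 32.5 CPM in OM HS21. Replicate 5 of OM LS, which had the highest principal cell marker level of the OM (6.97 log2 CPM), was the highest library for *Scnn1b*. *Scnn1g* stood at 39.4, 34.6, 45.2, 50.8 and 81.0 CPM in OM LS, at 49.1, 41.2, 72.8, 66.7 and 50.8 CPM in OM HS14 and at 79.5, 43.4, 50.5, 48.9 and 41.2 CPM in OM HS21. The log2 ratios at HS21 were 0.19 (95% interval -0.35 to 0.74) for *Scnn1a*, -0.02 (-0.52 to 0.48) for *Scnn1b* and 0.07 (-0.48 to 0.63) for *Scnn1g*. At HS14 they were -0.08 (-0.53 to 0.37), 0.07 (-0.47 to 0.61) and 0.17 (-0.37 to 0.70). These intervals span both directions.

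In the OM *Prss8* and *St14* spread widely between libraries, and *Furin* and *Plau* spread less. *Prss8* was at 159, 349, 233, 219 and 133 CPM in OM LS, 194, 261, 159, 180.3 and 129.9 CPM in OM HS14 and 122, 195, 231, 222 and 208 CPM in OM HS21. *St14* was at 202, 53.4, 162, 155 and 236 CPM in OM LS, 149, 174, 249.8, 181 and 297 CPM in OM HS14 and 253, 197, 188, 156 and 153 CPM in OM HS21. Replicate 2 of OM LS gave the highest *Prss8* and the lowest *St14* of the 15 OM libraries, and it also had the highest proximal marker level, 9.50 log2 CPM. At the other end, proximal marker levels were 4.89 log2 CPM in replicate 5 of OM LS, 6.10 in replicate 8 of OM HS14 and 6.11 in replicate 11 of OM HS21. These libraries had 133, 159 and 122 CPM of *Prss8* and the highest *Scnn1a* of their groups. Replicate 10 of OM HS14 had 129.9 CPM of *Prss8* at a higher proximal marker level, 7.04 log2 CPM. The log2 ratio of *St14* to LS was 0.38 (95% interval -0.38 to 1.15) at HS14 and 0.23 (-0.49 to 0.96) at HS21, and that of *Prss8* was -0.25 (-0.84 to 0.35) and -0.16 (-0.74 to 0.41). Without replicate 2 of OM LS the ratios were 0.16 and 0.01 for *St14* and -0.02 and 0.06 for *Prss8*, and without replicate 10 of OM HS14 that of *St14* at HS14 was 0.22. None of these was called. The part of the proximal markers in these values was not tested.

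**Figure D4:**
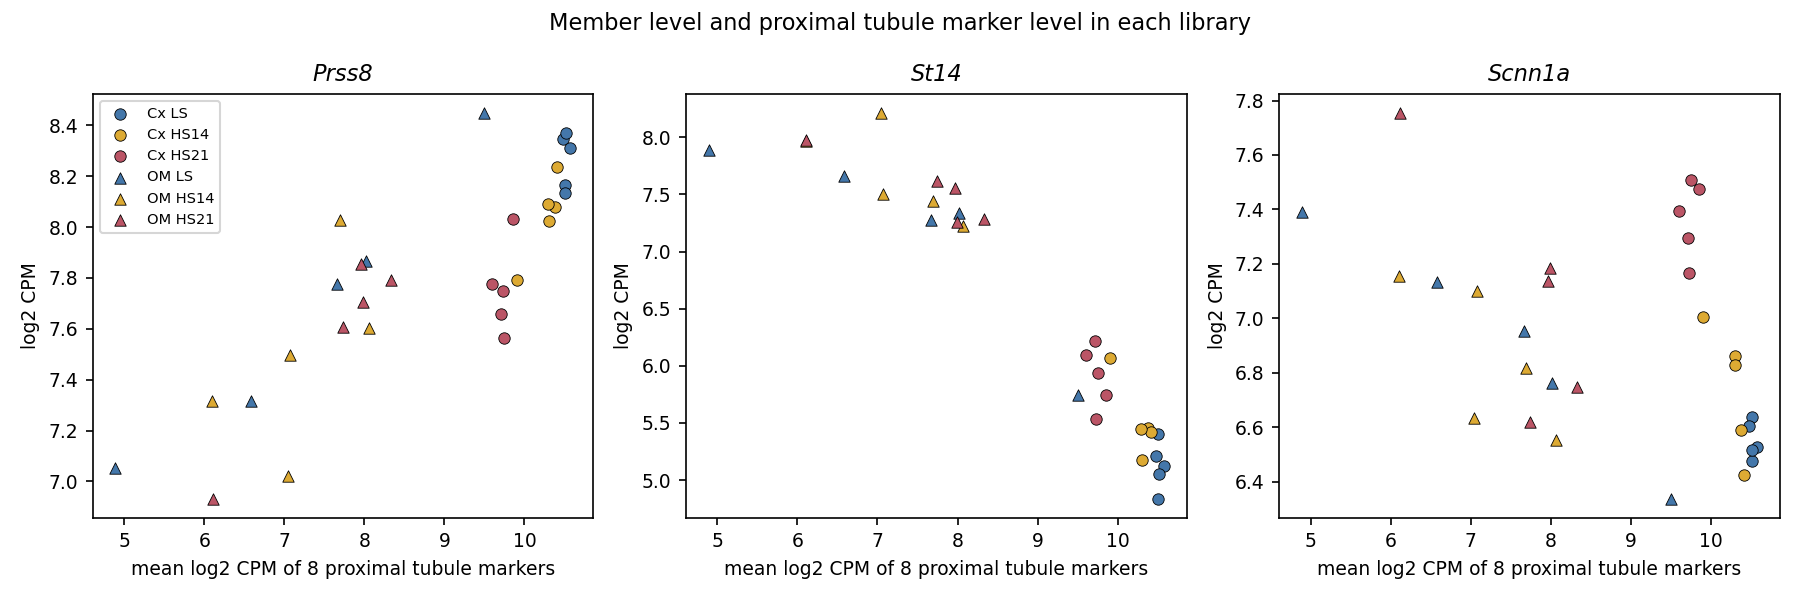
Log2 CPM of *Prss8*, *St14* and *Scnn1a* (y axes) against the mean log2 CPM of 8 proximal tubule markers (x axis) in each of the 30 libraries, with circles for Cx, triangles for OM and colours for diet. Replicate 2 of OM LS is the triangle at 9.50 on the x axis, next to the Cx libraries.

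*Furin* spanned 212 to 294 CPM in OM LS, 235 to 277 CPM in OM HS14 and 172 to 271 CPM in OM HS21, with log2 ratios of 0.07 (95% interval -0.22 to 0.36) and -0.13 (-0.41 to 0.15). *Plau* was at 1436, 1468, 1248, 1293 and 1515 CPM in OM LS, at 1472, 1280.0, 1396, 1391 and 1331 CPM in OM HS14 and at 1144, 1192, 1258, 1210.0 and 1330.0 CPM in OM HS21. The groups overlapped, with a log2 ratio at HS21 of -0.18 ± 0.09 (edgeR adjusted *P* = 0.539, 95% interval -0.39 to 0.03), and at HS14 the ratio was -0.02 (-0.32 to 0.29). *Spint1* spanned 70.4 to 125 CPM in OM LS, 43.1 to 97.3 CPM in OM HS14 and 81.4 to 94.9 CPM in OM HS21 (log2 ratio -0.17, 95% interval -0.47 to 0.13), and *Spint2* 637 to 977, 444 to 1014 and 745 to 819 CPM (log2 ratio 0.00, 95% interval -0.26 to 0.26). At HS14 the ratios were -0.23 (-0.72 to 0.27) and 0.00 (-0.47 to 0.48), and replicate 10 of OM HS14 had the lowest level of both inhibitors in any OM library, 43.1 CPM of *Spint1* and 444 CPM of *Spint2*. With that library and replicate 2 of OM LS left out, a choice made after seeing the data, still none of the 9 genes was called at HS14, and *Prss8* had a log2 ratio of 0.09 in place of -0.25.

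**Figure D5:**
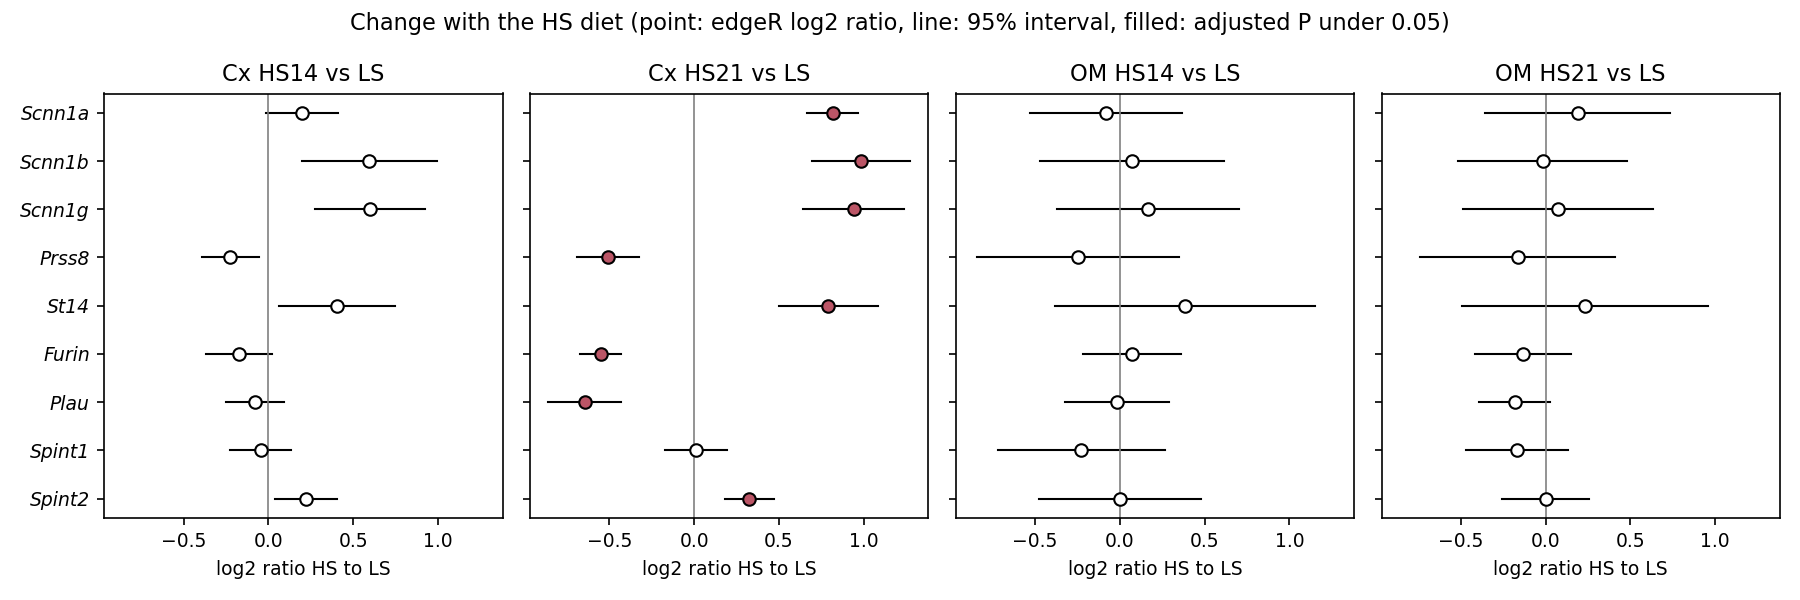
EdgeR log2 ratio of HS to LS (x axis) of the 9 genes (y axis) in the 4 comparisons with LS, with lines for the 95% interval and filled points for an adjusted *P* under 0.05. The 8 filled points are all in the Cx HS21 panel, and every interval of both OM panels includes 0.

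The HS21 changes of Cx and OM were set against each other with an interaction term over 20 libraries. None of the 9 genes was called, against 0.665% of 15194 genes, and 6 of the 9 had an unadjusted *P* under 0.05, as did 15.6% of all genes. The interaction was -1.01 ± 0.28 for *Scnn1b* (edgeR adjusted *P* = 0.0973), 0.46 ± 0.14 for *Plau* (edgeR adjusted *P* = 0.126), -0.88 ± 0.30 for *Scnn1g* (edgeR adjusted *P* = 0.172), 0.42 ± 0.15 for *Furin* (edgeR adjusted *P* = 0.183), -0.33 ± 0.14 for *Spint2* (edgeR adjusted *P* = 0.25) and -0.63 ± 0.26 for *Scnn1a* (edgeR adjusted *P* = 0.256). A negative value means a smaller ratio of HS21 to LS in the OM. DESeq2 called *Scnn1b* and *Plau*, and 3.62% of all genes, and without replicate 2 of OM LS edgeR called 4 of 9, *Scnn1b* (-1.06, edgeR adjusted *P* = 0.0299), *Furin* (0.52, edgeR adjusted *P* = 0.0277), *Plau* (0.50, edgeR adjusted *P* = 0.0356) and *St14* (-0.77, edgeR adjusted *P* = 0.0485), where 8.28% of all genes were then called.

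On the LS diet, 5 of the 9 genes differed between OM and Cx, where 40.9% of 14295 genes tested were called. *St14* was 4.59-fold higher in the OM (log2 ratio 2.20 ± 0.32, edgeR adjusted *P* = 0.000415), *Plau* 2.35-fold higher (1.23 ± 0.09, edgeR adjusted *P* = 7.76e-06) and *Furin* lower (-0.96 ± 0.10, edgeR adjusted *P* = 5.7e-05). *Spint2* was higher by 0.43 ± 0.11 (edgeR adjusted *P* = 0.0104) and *Spint1* by 0.36 ± 0.13 (edgeR adjusted *P* = 0.0494), the latter a call lost under most alternatives. Of the 9, 4 did not overlap between the tissues (*St14*, *Plau*, *Furin* and *Spint2*), as did 29.0% of all genes. The subunits were not called, with 0.40 ± 0.16 for *Scnn1a* (edgeR adjusted *P* = 0.0708), -0.37 ± 0.21 for *Scnn1b* (edgeR adjusted *P* = 0.191) and 0.10 ± 0.20 for *Scnn1g* (edgeR adjusted *P* = 0.707), and *Prss8* had -0.50 ± 0.23 (edgeR adjusted *P* = 0.107). Without replicate 2 of OM LS *Scnn1a* (0.50, edgeR adjusted *P* = 0.00344) and *Prss8* (-0.75, edgeR adjusted *P* = 0.00329) were called too, where 51.9% of all genes were called and *St14* had 2.41, and without replicate 5 of OM LS *Scnn1b* was (-0.65, edgeR adjusted *P* = 0.000171). Scaling by total counts moved the median of all genes from 0.03 to 0.27 in this comparison and called *Scnn1a* (0.66).

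Levels of different genes were compared as CPM per kilobase of gene length. In Cx LS *Spint2* had 396 ± 13.4 (SD, n = 5) CPM per kilobase, *Plau* 315 ± 19.9, *Prss8* 139 ± 10.4, *Furin* 111 ± 4.97, *Spint1* 30.6 ± 2.56, *Scnn1a* 27.8 ± 1.31, *Scnn1b* 17.1 ± 1.37, *Scnn1g* 15.3 ± 0.78 and *St14* 10.97 ± 1.56. In this order *Spint1* and *Scnn1a* overlapped, as did *Scnn1b* and *Scnn1g*, and the other neighbours did not. In Cx HS21 *Scnn1a* (49.1 ± 4.65) and *Scnn1b* (33.9 ± 7.48) stood before *Spint1* (30.8 ± 3.44), although each of these neighbours overlapped. In OM LS *Plau* came first with 742 ± 61.6 CPM per kilobase, *Spint2* second with 535 ± 85.4 and *Scnn1b* last with 13.3 ± 5.47, and from *Prss8* down all neighbours overlapped.

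Within the 3 subunits, *Scnn1a* made up 46.2 ± 1.85% (SD, n = 5) of their summed CPM per kilobase in Cx LS, 40.0 ± 3.60% in Cx HS14 and 44.1 ± 5.20% in Cx HS21. The HS14 share, 33.8 to 43.1%, lay below the LS share, 43.3 to 48.4%, in every library. In the OM the share of *Scnn1a* was 55.6 ± 5.54% on LS, 51.8 ± 4.04% at HS14 and 57.4 ± 4.78% at HS21, and that of *Scnn1b* 19.9 ± 3.36% on LS against 28.4 ± 1.76% in Cx LS. Per kilobase *Scnn1b* exceeded *Scnn1g* by a mean ratio of 1.13 in Cx LS and stood at 0.81 of it in OM LS. The ratio of *St14* to *Spint1* per kilobase was 0.362 ± 0.064 in Cx LS, 0.487 ± 0.081 in Cx HS14 and 0.618 ± 0.102 in Cx HS21, without overlap of HS21 (0.487 to 0.728) and LS (0.297 to 0.435). The ratio of *Prss8* to *Spint2* went from 0.353 ± 0.021 in Cx LS to 0.265 ± 0.054 at HS14 and 0.199 ± 0.026 at HS21, again without overlap of HS21 (0.178 to 0.231) and LS (0.320 to 0.376). These ratios combine genes described above and were given no test.

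Other genes of the pathway were read from 4 lists. Their counts at Cx HS21 stand beside the 39.4% of all genes tested that edgeR called there. Of the 13 regulators of aldosterone response and ENaC, all tested, 5 were raised and 2 lowered in Cx HS21, with a median log2 ratio of 0.27 beside 0.01 over all genes. The largest changes were those of *Tsc22d3* (the glucocorticoid-induced leucine zipper, GILZ), which rose by 1.42 ± 0.35 (edgeR adjusted *P* = 0.00729), *Hsd11b2* (the enzyme that inactivates glucocorticoids in these cells), which rose by 0.80 ± 0.15 (edgeR adjusted *P* = 0.00142), and *Nr3c2* (the mineralocorticoid receptor), which rose by 0.80 ± 0.16 (edgeR adjusted *P* = 0.00205). *Hsd11b2* is also one of the principal cell markers. Of 13 other proteases found, 10 were tested in the Cx, and 3 rose and 2 fell at HS21 (median 0.52). *Ctss*, a cathepsin of antigen-presenting cells, rose by 1.69 ± 0.34 (edgeR adjusted *P* = 0.00232), *Plat*, tissue plasminogen activator, rose by 0.64 ± 0.12 (edgeR adjusted *P* = 0.00199), and *Ctsb*, a lysosomal cathepsin, fell by 0.50 ± 0.07 (edgeR adjusted *P* = 0.000343).

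Of 6 urokinase partners and other inhibitors, 5 were tested in the Cx, and 3 rose at HS21 and none fell (median 0.83), where 39.4% of all genes were called. *Slpi*, a secreted leukocyte protease inhibitor, rose by 2.71 ± 0.49 (edgeR adjusted *P* = 0.00131) and *Plaur*, the urokinase receptor, by 0.83 ± 0.20 (edgeR adjusted *P* = 0.00643). So in Cx HS21 the urokinase receptor was raised while *Plau* itself was lowered, with leukocyte markers raised in the same libraries, and the part of these cells was not tested. Of 5 degenerin relatives found, 2 were tested in the Cx, and *Asic1*, an acid-sensing ion channel, rose by 0.72 ± 0.16 (edgeR adjusted *P* = 0.00467). At HS14 in the Cx edgeR called no gene of the 4 lists, with 2, 2, 2 and 0 at an unadjusted *P* under 0.05 in the order given. In the OM it called none at HS14, with 0, 0, 1 and 1 at an unadjusted *P* under 0.05, and none at HS21, with 2, 1, 1 and 1. In these 3 comparisons limma called none either, and DESeq2 called *Plat*, *Ctss* and *Tsc22d3* in Cx HS14, none in OM HS14, and *Ctss*, *Usp2* and *Asic2* in OM HS21, all higher.

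The protein-coding genes whose log2 CPM followed each subunit most closely were found by Pearson's r, as a description over 15 libraries that share their diet groups and tissue composition. Over the 15 Cx libraries and 13338 genes ranked, these were *Itm2a* (r = 0.941, Spearman's rho = 0.896), *Selm* (0.939 and 0.871) and *Tspo* (0.939 and 0.861) for *Scnn1a*. For *Scnn1b* they were *Rhcg* (0.979 and 0.975), an ammonia channel of the distal nephron, *L1cam* (0.970 and 0.921) and *Ampd3* (0.970 and 0.957), and for *Scnn1g* *Itm2b* (0.971 and 0.929) and *Adipoq* (0.965 and 0.954). No gene named here was shared by 2 subunits in the Cx. Over the 15 OM libraries and 13450 genes, *Scnn1a* was followed most closely by *Sema3b* (0.890 and 0.850), *Foxi1* (0.866 and 0.800) and *Slc4a1* (0.834 and 0.736), of which *Foxi1* and *Slc4a1* are intercalated cell markers. *Scnn1b* was followed by *Col11a1* (0.870 and 0.889), *Rai14* (0.861 and 0.746) and *Pxdc1* (0.850 and 0.789), and *Scnn1g* by *Ctsc* (0.907 and 0.732), *Rai14* (0.883 and 0.868) and *Col11a1* (0.852 and 0.782).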

How the data were processed

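Libraries for mRNAseq came from 5 rats per group, from both kidney regions. Per the labels and the study's methods, the authors aligned paired reads to Ensembl Rnor_6.0 with HISAT2 2.0.5 and counted them per gene with featureCounts 1.5.0-p3. StringTie 1.3.3b is also named in the submitters' processing notes. The counts were deposited as whole numbers and had not been normalized. The FPKM values deposited beside them were made by the authors from the same counts, the gene length and DESeq2 size factors, so they carry no independent information. Columns of the authors' own comparisons (group means, log2 fold changes and *P* values) were not used. The members and lists were chosen with earlier results of these data known.

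Counts were tested with edgeR 4.0.16 in R 4.3.3 (filterByExpr, TMM, glmQLFit, glmQLFTest) on the 10 libraries of a comparison, or 20 for the interaction, with Benjamini-Hochberg adjustment and a threshold of 0.05. Log2 CPM used a prior count of 2. Intervals are 95% intervals of the fit. The marker-relative values were tested by exact permutation with SciPy 1.17.1, two-sided and adjusted over 12 tests. Alternatives were DESeq2 1.42.0, limma 3.58.1 on log2(FPKM + 1) and log2(FPKM + 0.1), other scalings, no low-count filter, a single fit of all 30 libraries, each library left out, a replicate block and, for the marker-relative values, a shorter marker list and a prior count of 0.5. The scripts were tested on simulated counts. All 9 members were named with every library's value or range, list genes only if called and among the 3 largest changes, and like genes as the 3 with the highest r among protein-coding genes of at least 1 CPM. Where a symbol had 2 rows (*Slpi*, *Nr3c1*, *Tsc22d3*), the one with more counts was used. *Klk1* and *Scnn1d* were not analysed here, and some genes that the naming rule picks are not reported here. Both regions came from the same rats, but the labels do not say that equal replicate numbers are 1 rat. The tissue comparisons therefore treat the libraries as independent. No 2 libraries of a group were copies, since in 60 pairs the difference was at least 7.29 times counting noise. *P* values set a difference between groups against the spread between these samples.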

Additional observations from a re-analysis of the deposited data

Results flagged for a closer look

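Values of a library that stood apart from the other 4 of its group on the log2 CPM scale, by the gap to its nearest neighbour as a share of the group's range, were found in 6 of the 54 sets of gene and group, all in the OM. Chance gives such a gap in about 1 of 20 sets. In OM LS *Scnn1b* of replicate 5 (63.9 CPM, others 27.8 to 32.5, gap 0.811 of the range) was high and *St14* of replicate 2 (53.4 CPM, others 155 to 236, gap 0.715) was low. In OM HS14 *Spint1* of replicate 10 (43.1 CPM, others 84.7 to 97.3, gap 0.83) was low. This library had the fewest counts and the lowest share of exonic bases. In OM HS21 replicate 11 had a high *Scnn1b* (45.9 CPM, others 32.5 to 35.0, gap 0.78) and *Spint1* (94.9 CPM, others 81.4 to 83.9, gap 0.803) and a low *Prss8* (122 CPM, others 195 to 231, gap 0.731). Replicate 11 also had the lowest proximal marker level of its group, 6.11 against 7.74 to 8.33 log2 CPM, and the part of this in its values was not tested.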

How the results depend on the processing

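The count of 8 members called in Cx HS21 was also 8 under every alternative tried except the single fit of all 30 libraries (6, without *Prss8* and *Spint2*), and left-out libraries changed none of these 8 calls. DESeq2 called 2 members in Cx HS14 and 2 in the interaction, and the fit of all 30 libraries called 1 in Cx HS21 against HS14. With each library left out, 0 to 2 members were called in Cx HS14, 2 to 6 in Cx HS21 against HS14 and 0 to 4 in the interaction. DESeq2 called 914 of all genes in Cx HS14 against 330 in edgeR, 110 against 1 in OM HS14, 721 against 112 in OM HS21 and 538 against 101 in the interaction, and the single fit called 19, 159, 506 and 27. The single fit called 2280 against 5638 in Cx HS21 and 429 against 2330 in Cx HS21 against HS14, and total counts called 44 in OM HS21 and limma 183 and no filter on low counts 58 in the interaction. Total counts moved the median of all genes from 0.01 to 0.13 in Cx HS21, with the same 8 members called, and from 0.01 to 0.13 in Cx HS21 against HS14, where *Furin* (-0.26) was no longer called.

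The ratios whose sign turned were not called in any of these fits. *Spint2* in OM HS14 was -0.035 with total counts and -0.027 with limma at either pseudocount. With both doubted libraries left out, an alternative chosen after seeing the data, *Prss8* (0.093 in place of -0.25), *St14* (-0.005 in place of 0.38) and *Plau* (0.009) turned in OM HS14. In OM HS21 *Scnn1b* was 0.036 and 0.042 with limma at the larger and smaller pseudocount, and *Spint2* was -0.001 in the single fit. With a library left out, *Spint1* ran from -0.039 to 0.068 in Cx HS21 and *Scnn1g* from -0.13 to 0.19 between the tissues. In OM HS14 *Scnn1a* ran from -0.21 to 0.041, *Scnn1b* from -0.014 to 0.35, *Plau* from -0.055 to 0.018 and *Spint2* from -0.10 to 0.15. In OM HS21 *Scnn1a* ran from -0.023 to 0.31, *Scnn1b* from -0.12 to 0.26, *Scnn1g* from -0.13 to 0.30, *Prss8* from -0.30 to 0.062 and *Spint2* from -0.069 to 0.082. Relative to principal cell markers *Scnn1a* ran from -0.20 to 0.013 and *Scnn1b* from -0.017 to 0.28 in OM HS14, and *Scnn1b* from -0.025 to 0.27 in OM HS21. The cause was not tested.

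The study's methods describe kidneys dissected into both regions, so Cx and OM libraries of a diet group share rats. No source used here ties equal numbers to 1 rat. Of 15 same-numbered pairs 12 had a correlation of deviations over 0.1 (-0.08 to 0.51) and 13 Cx libraries correlated best with their own number. Most Cx libraries thus matched their own number, but the labels do not state the pairing, and for that reason the fits without a block were kept. These fits leave the sharing of rats out of account. With a replicate block 5 members were called between the tissues (5011 of all genes against 5845) and 0 in the interaction (94 against 101), so the block changed no call of a member. In OM HS14 and OM HS21 the 95% intervals of the members were wide, and smaller changes than these intervals span remain possible.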
